A study of Homo sapiens with 12 samples.

Results

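The genes described here encode the nuclear subunits of respiratory complex I. They are the 37 genes whose RefSeq symbol begins with NDUFA, NDUFB, NDUFC, NDUFS or NDUFV, with the NDUFAF assembly factors left out, among 6589 genes with a called coding ORF. All 37 were found in the table and all 37 passed the filter on low counts. They were grouped by their place in the enzyme into 7 core subunits, 9 accessory subunits of the matrix arm, 20 accessory subunits of the membrane arm, and NDUFAB1, which sits in both arms. Ribosome footprints were sequenced from HEK293, a human embryonic kidney cell line, in 3 conditions. Log phase cells grew in medium with 10% fetal bovine serum, serum starved cells spent 2 h without it, and amino acid starved cells spent 1 h in a salt solution with vitamins that kept the 10% serum. Lysates of all groups held cycloheximide, and fragments of 17 to 34 nt were taken from pooled monosome fractions (mRNAs with 1 ribosome) and pooled polysome fractions (mRNAs with several). Each of the 6 groups has 2 libraries, marked A and B, and no label says that these came from separate cultures, so each p below measures the spread between these libraries only.

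Complex I is the entry point of electrons from NADH into the respiratory chain of the inner mitochondrial membrane. Its matrix arm oxidises NADH and passes the electrons along iron-sulfur clusters to ubiquinone, and its membrane arm pumps protons. The membrane core is made inside the mitochondrion from mitochondrial DNA, whereas the subunits described here are translated in the cytosol and imported, so that mRNAs of nuclear subunits are read by cytosolic ribosomes. Several mRNAs of this kind are known to have very short leaders and to start at an AUG within a conserved element. This is the translation initiator of short leaders, which spans the AUG and can hold AAGATGG and ATGGCGG.

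The monosome libraries held 119881 to 346215 coding footprints and the polysome libraries 1493883 to 5313484. A member had 0 to 716 footprints in a monosome library, with 8 members under 10 in at least 1 of them, and 34 to 12878 in a polysome library. Levels are CPM, coding footprints as a proportion of each library's total on the usual per-library scale, with totals adjusted by TMM (trimmed mean of M values). Footprint levels follow mRNA amount and ribosome load alike, and fewer cells with an mRNA cannot be told apart from less of it per cell. Of 7 HEK293 markers, LIN28B, NEFL, NEFM and VIM were tested genes, KRT8 had 20 footprints, and PAX2 and KRT18 had no kept coding ORF, whereas of 8 markers of other lines only COL1A1 had one, with 52 footprints. The letters separated libraries as well: B minus A deviations correlated between every pair of groups (r = 0.161 to 0.866 over genes). The correlation was strong among polysome groups (0.769 to 0.866). It was weaker among monosome groups (0.216 to 0.313) and between a monosome and a polysome group (0.161 to 0.425). Values are therefore also given from a model with the letter as a term, called the replicate block. That term is shared by both fractions, so it cannot follow a difference between letters that is particular to 1 fraction.

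The genomic sequence at the annotated start of the mRNA is shown first. The monosome over polysome ratios of members with and without the element are set side by side further on. RefSeq promoter windows (GRCh38.p14) were found for 32 members, and 5 had none, among them NDUFB5, NDUFB9, NDUFC2 and NDUFS5. The first 50 bases after the annotated start were searched on both strands for AAGATGG and ATGGCGG, which overlap in the letters ATGG. On the mRNA strand AAGATGG was found in 8 of 32 members (25%), against 5.83% of 4011 tested genes with a window. ATGGCGG was found in 10 of 32 (31.2%), against 8.68% of those genes. Either motif was present in 13 members (40.6%), against 11.3% of tested genes and 5.76% of 15843 protein-coding genes, and in these members its ATG had 11 to 28 bases before it. On the other strand either motif occurred in 3 of 32 members (9.38%), against 2.67% of tested genes. A match says only that the letters are there. The windows are genomic, so their later bases may lie past the first exon. The 10 stretches below, 5′ to 3′, show members of high and low monosome share, and NDUFS6, whose log2 ratio was 0.10. Capitals mark the motif, or an ATG alone where the gene has neither motif.
NDUFS4, chr5:53560651-53560680 on the plus strand: gcctgcagcAAGATGGCGGcggtgtcaatg
NDUFS7, chr19:1383915-1383944 on the plus strand: gccgaggccAAGATGGCGGtgctgtcaggt
NDUFA9, chr12:4649115-4649144 on the plus strand: ttgtgggaaAAGATGGCGGctgccgcacaa
NDUFS3, chr11:47579080-47579109 on the plus strand: catctgagtaacATGGCGGcggcggcggta
NDUFA13, chr19:19516227-19516256 on the plus strand: gatactgcgagtATGGCGGcgtcaaaggtg
NDUFB11, chrX:47144662-47144691 on the minus strand: gcaccatctgtcATGGCGGctgggctgttt
NDUFS6, chr5:1801406-1801435 on the plus strand: cagcggcgcaaaATGGCGGcggcgatgacc
NDUFA3, chr19:54102867-54102896 on the plus strand: gcggagacaAAGATGGctgcgagtaagtgc
NDUFV3, chr21:42893322-42893351 on the plus strand: gctgtcaccgccATGgctgccccgtgtttg
NDUFB2, chr7:140696733-140696757 on the plus strand: acgggagcgagtATGtccgctctga
For NDUFS6, NDUFB11 and NDUFB2 the ATG shown is the start of the called coding ORF. For NDUFS4, NDUFA13 and NDUFA3 the called start lies in the same window and in frame with it. In all, 23 called coding starts of 14 members lay inside these windows, and in each the called codon was the codon of the reference.

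The called coding ORFs were short. The leading ORF had a median of 402 nt, against 648 nt over 4888 tested genes. It was under 300 nt in 8 members (21.6%, against 19.5% of tested genes). In 4 members it had 600 nt or more (10.8%, against 53.4%). It began at ATG in 13 of 37 members (35.1%), against 22.5% of tested genes and at another codon in the others, GTG being the next most frequent with 7 members (18.9%, against 13.1%). In 20 members it was of the truncated type (54.1%, against 65.7% of tested genes). In 7 it was a variant (18.9%, against 18.9%) and in 10 the annotated coding sequence (27%, against 15.4%). For NDUFA10 only 30 nt were called and for NDUFS1 only 276 nt, so that their values stand for a fragment of the gene.

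Levels spanned a wide range, although the subunits are present in 1 enzyme. Per kilobase of called coding ORF, the mean polysome level was highest for NDUFS5, a small intermembrane-space subunit, at 6190 CPM, followed by NDUFA13 (GRIM-19) at 4688 CPM, NDUFA1 at 4190 CPM and NDUFS6 at 3218 CPM. Among the lowest were NDUFS1 (68.6 CPM), NDUFV1 (197 CPM) and NDUFA9 (220 CPM). All 7 core subunits lay at or below the 616 CPM per kilobase of NDUFS3, as did several accessory subunits, NDUFA9, NDUFB7 and NDUFS4 among them. In monosomes the order differed: NDUFC1 led with 10785 CPM per kilobase, ahead of NDUFA1 at 3943 CPM and NDUFS6 at 3324 CPM. Neighbours overlapped between libraries at both ends of the polysome order, as NDUFS5, NDUFA13 and NDUFA1 did at the top and NDUFV1 and NDUFA9 near the bottom. Part of that spread lay between the letters. NDUFA1 had 1611 CPM in the A and 416 CPM in the B library of log phase polysomes, and 1601 and 414 CPM in serum starvation. NDUFV1 ran the other way, with 155 CPM in A and 290 CPM in B in log phase polysomes.

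Over the 3 conditions 7 members stood apart by a high monosome over polysome ratio, and the others ran without a break from near 0 to well below it. In the edgeR quasi-likelihood fit 7 of 37 were higher in monosomes (NDUFC1, NDUFA3, NDUFV3, NDUFB7, NDUFB2, NDUFB1, NDUFB10) and 14 were lower, at a Benjamini-Hochberg adjusted p under 0.05 over all genes. Of all 4888 tested genes 17.0% were higher and 21.8% lower (38.9% in either direction). The median log2 ratio of the members was -0.43, against -0.18 for all tested genes. With the replicate block 7 members were higher and 17 lower, where 23.9% of genes were higher and 30.1% lower (54.1% in all). The 7 higher members had log2 ratios of 1.42 to 2.19, and the next in order, NDUFS1, was at 0.18, so that no member lay between. The NDUFS1 value (SE 0.397) rested on 2 to 7 footprints per monosome library. With a leading ORF under 300 nt, 4 of 8 members were higher and 2 lower (median log2 ratio 0.81). Of 953 such tested genes 300 were higher and 64 lower (0.65). From 300 nt up to 600 nt it was 3 and 11 of 25 members (-0.88), and 243 and 308 of 1323 genes (-0.29). At 600 nt or more it was 0 and 1 of 4 (-0.42), and 289 and 696 of 2612 (-0.36). Ratio and length had Spearman's rho = -0.344 over members and -0.13 over tested genes. The part of length in the ratio was not tested. Of the 21 calls, 16 held without each library in turn. NDUFA6 lost its call without amino acid starvation monosome B or polysome A (adjusted p up to 0.0741), and NDUFB8 without amino acid starvation polysome A (0.0801). NDUFA10 kept it only without either serum starvation monosome library, log phase polysome A or serum starvation polysome A (adjusted p up to 0.179 otherwise), and its log2 ratio ran from -3.86 without serum starvation monosome B to -0.84 without log phase polysome B. NDUFB11 kept it only without serum starvation monosome A or the B polysome library of any condition (up to 0.174 otherwise), and NDUFB10 lost it without 5 libraries. Where only ORFs of the annotated coding type were counted, 10 members remained in the test, with 3 higher, 0 lower and a median of 0.14, where 21.1% of 804 tested genes were higher and 21.3% lower.

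**Figure D1:**
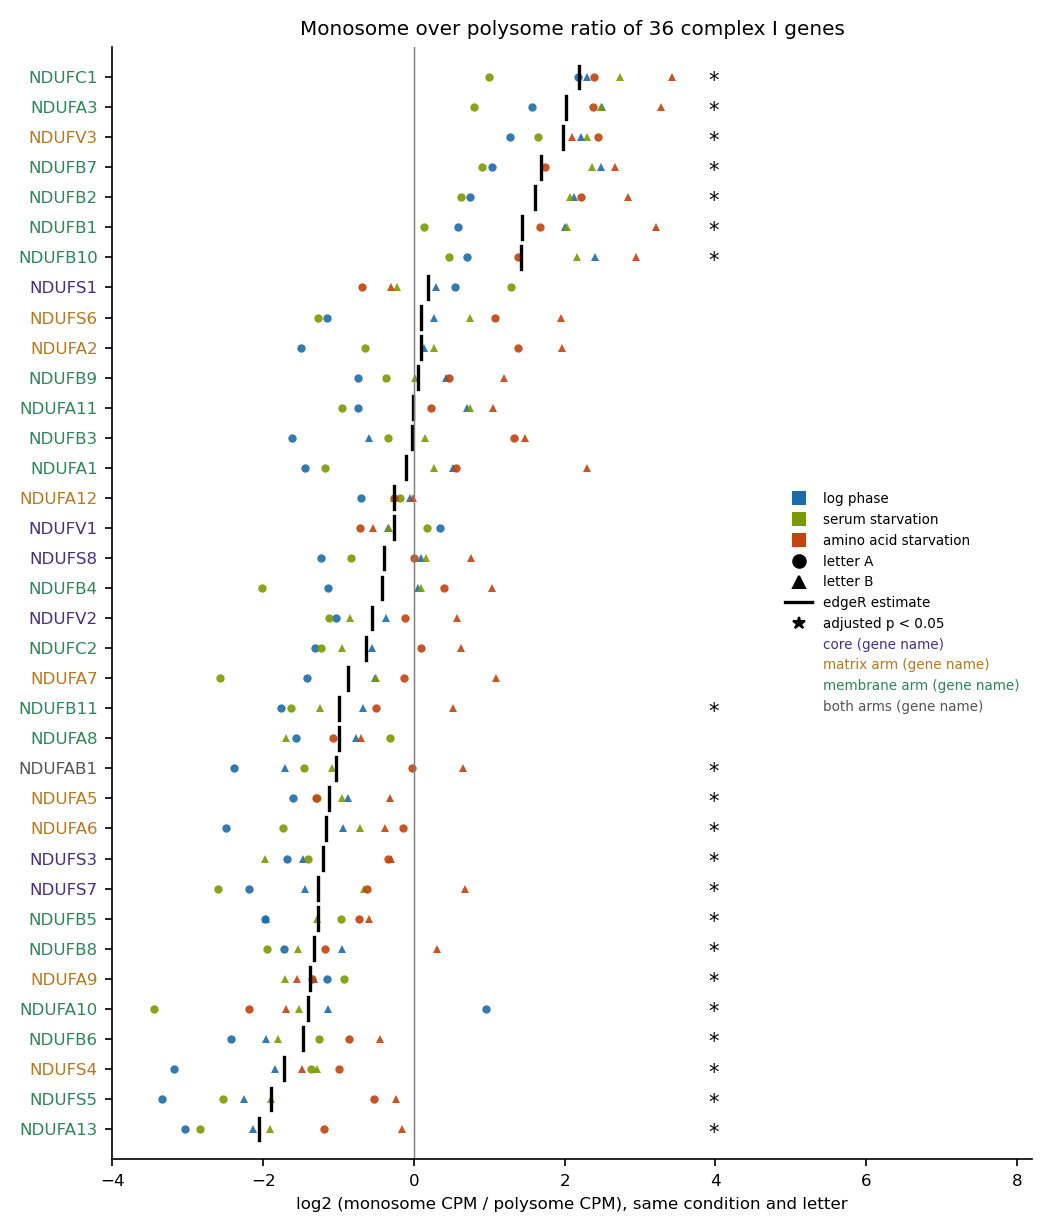
Log2 ratio of monosome over polysome CPM for 36 of the genes, 1 point per condition (colour) and letter (circle A, triangle B), with the edgeR estimate over 3 conditions as a bar and a star at adjusted p under 0.05; gene names are coloured by place in the complex. All 6 points lie above 0 for the top 7 genes, which stand apart from the rest, and letter B points mostly lie right of A points.

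Of the 7 core subunits, none was higher in monosomes and 2 were lower (median log2 ratio -0.40), against 17.0% and 21.8% of all tested genes. NDUFS7, which carries the last iron-sulfur cluster before ubiquinone, ranged from 46.5 to 115 CPM in 6 monosome libraries (median 59.2) and from 71.1 to 331 CPM in 6 polysome libraries (median 113). These ranges overlapped, and the log2 ratio was -1.27 (SE 0.379, adjusted p = 0.0167). NDUFS3, a scaffold of the ubiquinone-binding module, was at 95.4 to 271 CPM in monosomes (median 140) and 261 to 391 CPM in polysomes (median 361). Its ranges overlapped only at the top monosome library, amino acid starvation A, and its log2 ratio was -1.21 (SE 0.276, adjusted p = 0.00354). The NADH-binding subunit NDUFV1 (log2 -0.27, adjusted p = 0.486), its partner NDUFV2 (-0.56, 0.166), NDUFS8 (-0.40, 0.499) and the largest nuclear subunit NDUFS1 (0.18, 0.744) did not pass.

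Among the 9 matrix arm accessory subunits 1 was higher and 4 were lower (median log2 ratio -0.88), beside the same 17.0% and 21.8% of tested genes. NDUFV3, an accessory subunit of the NADH-binding module, had 331 to 536 CPM in monosomes (median 420) and 66 to 148 CPM in polysomes (median 96.2). Every monosome library was above every polysome library, with a log2 ratio of 1.98 (SE 0.303, adjusted p = 0.000229). NDUFS4, whose loss is a known cause of Leigh syndrome, went the other way, with 14.4 to 55.5 CPM in monosomes (median 40.5) and 104 to 146 CPM in polysomes (median 113). Its ranges did not overlap either, at a log2 ratio of -1.73 (SE 0.294, adjusted p = 0.000523), although its monosome values rested on 4 to 15 footprints per library. NDUFA9, which stabilises the junction of the arms, had 53 to 142 CPM in monosomes (median 66.7) and 103 to 365 CPM in polysomes (median 191). Its ratio was below 0 in all 6 pairs of condition and letter (log2 -1.38, SE 0.293, adjusted p = 0.0022). NDUFA5 (log2 -1.13) and NDUFA6 (-1.17), an LYR-motif protein that binds NDUFAB1, were lower as well. NDUFS6, which binds zinc, was among the highest members in both fractions. It had 933 to 1911 CPM in monosomes (median 1087) and 388 to 2308 CPM in polysomes (median 919), with a log2 ratio of 0.10 (SE 0.388, adjusted p = 0.855).

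The 20 membrane arm accessory subunits held 6 of the 7 higher members and 7 of the lower ones (median log2 ratio -0.27). Among all tested genes 17.0% were higher and 21.8% lower. NDUFC1, the smallest called ORF among the higher members at 150 nt, had 981 to 2578 CPM in monosomes (median 1528) and 146 to 638 CPM in polysomes (median 299). The ranges did not overlap, and the log2 ratio was 2.19 (SE 0.411, adjusted p = 0.001). NDUFA3 had 328 to 616 CPM in monosomes and 34.5 to 232 CPM in polysomes (log2 2.02, SE 0.385). NDUFB2 had 596 to 1048 CPM in monosomes (median 883) and 130 to 555 CPM in polysomes (median 207), again without overlap (log2 1.61, SE 0.383, adjusted p = 0.00455). NDUFB1, a single-pass membrane subunit, was at 388 to 579 against 60.6 to 355 CPM (log2 1.43, SE 0.383).

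Subunits of one fold did not share a direction. NDUFB7, NDUFB10, NDUFS5 and NDUFA8 share a cysteine-paired helical fold and face the intermembrane space. NDUFB7 had 316 to 573 CPM in monosomes (median 475) and 60.1 to 278 CPM in polysomes (median 114), at a log2 ratio of 1.68 (SE 0.405, adjusted p = 0.00511). NDUFB10 had 567 to 1007 CPM in monosomes (median 763) and 83.3 to 542 CPM in polysomes (median 248), at 1.42 (SE 0.432, adjusted p = 0.0179). Neither gene's ranges overlapped. The NDUFB10 call was lost without log phase monosome A, either amino acid starvation monosome library or either serum starvation monosome library (adjusted p = 0.0501 to 0.0798). NDUFS5 was opposite, with 265 to 1005 CPM in monosomes (median 420) and 1053 to 3110 CPM in polysomes (median 1367), at -1.90 (SE 0.374, adjusted p = 0.00142). NDUFA8 lay at -1.0 (SE 0.392, adjusted p = 0.0551), and at the same log2 ratio with adjusted p = 0.000969 under the replicate block.

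NDUFA13 had the largest shift toward polysomes among the members. It had 282 to 801 CPM in monosomes (median 449) and 692 to 3683 CPM in polysomes (median 1535), at a log2 ratio of -2.05 (SE 0.425, adjusted p = 0.00194), and only amino acid starvation polysome B fell inside the monosome range. NDUFB6 had 170 to 543 CPM in monosomes (median 359) and 598 to 1308 CPM in polysomes (median 864) without overlap (log2 -1.47, SE 0.355, adjusted p = 0.00511). NDUFB5 (log2 -1.27, SE 0.259), NDUFB8 (-1.32, SE 0.391), NDUFB11 (-0.99, SE 0.362) and NDUFA10 (-1.40, SE 0.515) were also lower. NDUFA10 had 0 to 7 footprints in a monosome library. NDUFAB1, the mitochondrial acyl carrier protein, was lower at -1.03 (SE 0.296, adjusted p = 0.0132). In all, every monosome library lay above every polysome library for 7 members (9.55% of tested genes) and below for 5, namely NDUFA5, NDUFB5, NDUFB6, NDUFS4 and NDUFS5 (12.0% of tested genes).

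**Figure D2:**
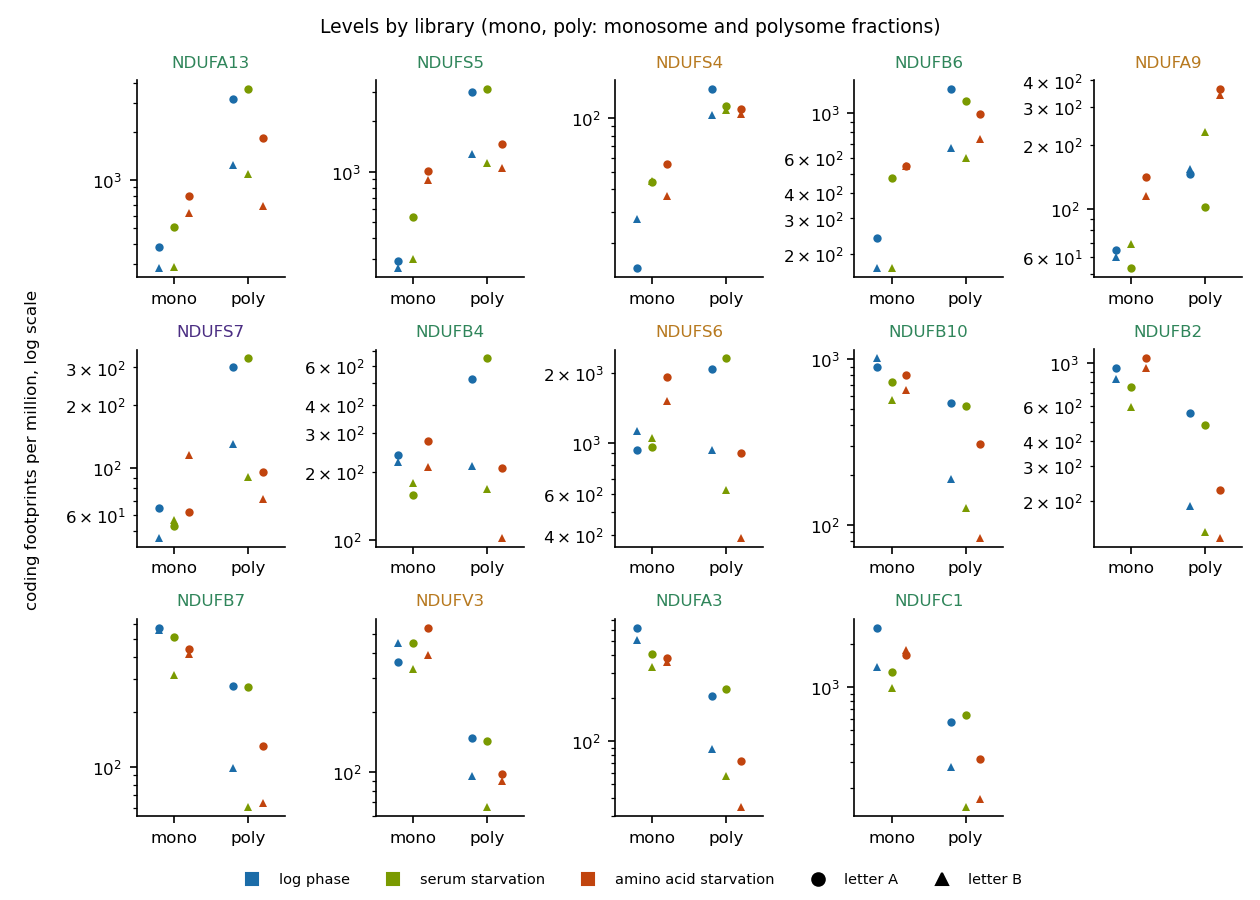
Levels in CPM on log axes that differ between panels, for the 14 members named by rule, ordered by monosome over polysome ratio; 1 point per library, with colour for condition and a circle or triangle for letter A or B. Monosome points lie below the polysome points for NDUFS5, NDUFS4 and NDUFB6 and above them for NDUFB10, NDUFB2, NDUFB7, NDUFV3, NDUFA3 and NDUFC1.

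The 5′ element and the ratio were set side by side after both were known, so the following is a description with no test. Calls counted here are those without the block. Of the 10 members with ATGGCGG in their first 50 bases (NDUFA5, NDUFA6, NDUFA9, NDUFA13, NDUFB8, NDUFB11, NDUFS3, NDUFS4, NDUFS6 and NDUFS7), 9 were lower in monosomes and 0 higher, with a median log2 ratio of -1.24. The exception was NDUFS6. Of the 22 members with a window but without the motif, 3 were lower (NDUFB6, NDUFA10 and NDUFAB1) and 7 higher, with a median of -0.07. Called coding length was 375 to 1014 nt with the motif (median 436) and 30 to 1392 nt without (median 324). Over all tested genes with a window the contrast was much smaller: 28.2% of 348 genes with ATGGCGG were lower and 16.1% higher (median log2 -0.36), against 21.3% and 16.8% of 3663 genes without it (median -0.18). Of the 8 members with AAGATGG, 5 were lower and NDUFA3 was higher (median -1.22), against 7 lower and 6 higher of 24 without it (median -0.19). The 5 lower ones (NDUFA6, NDUFA9, NDUFB8, NDUFS4 and NDUFS7) also hold ATGGCGG. NDUFA3, NDUFA7 and NDUFA12 hold AAGATGG only, and none of these was called lower without the block. NDUFA7 lay at -0.88 (SE 0.407, edgeR adjusted p = 0.0996) and passed with the block (-0.64, SE 0.274, adjusted p = 0.0485). NDUFA12 lay at -0.26 (SE 0.278), below 0 in every pair of condition and letter. Over all tested genes with a window 25.6% of 234 genes with AAGATGG were lower and 11.5% higher, against 21.7% and 17.1% of 3777 without it.

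**Figure D3:**
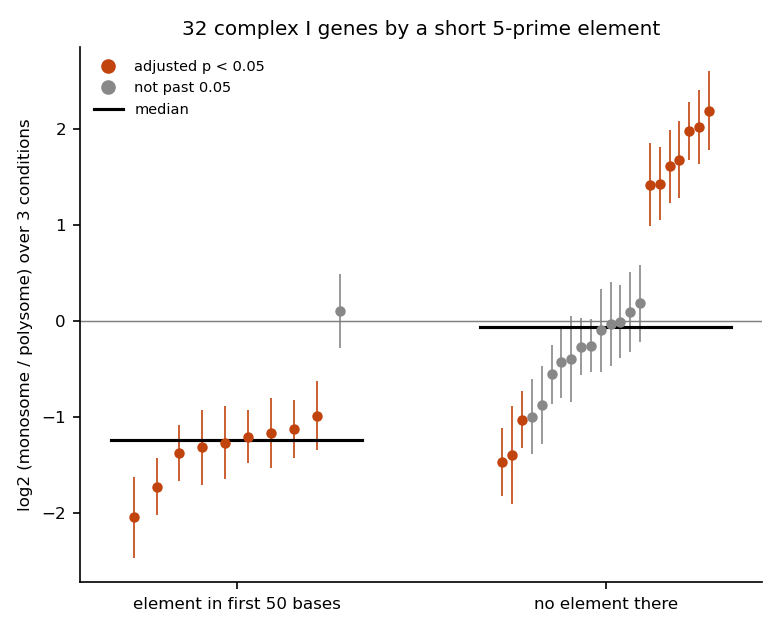
Log2 monosome over polysome ratio over 3 conditions (edgeR estimate, bars of 1 SE) for the 32 members with a promoter window, split by the 7-letter motif printed in the text; orange points passed adjusted p under 0.05 and black lines are medians. With the motif 9 of 10 points are orange and below 0, and all 7 called points above 0 are in the other column.

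Within single conditions fewer members passed. In log phase 1 member was higher (NDUFV3, log2 1.74) and 7 were lower, from NDUFS3 at -1.58 to NDUFS5 at -2.93, where 6.30% of tested genes were higher and 4.99% lower (11.3% in all). In serum starvation NDUFV3 was higher (1.90) and NDUFS3 (-1.71) and NDUFS5 (-2.35) were lower, against 4.38% and 2.68% of genes (7.06% in all). In amino acid starvation 4 were higher, NDUFC1 (2.84), NDUFA3 (2.79), NDUFB2 (2.49) and NDUFV3 (2.31), and 0 lower, against 5.52% and 1.53% of genes (7.06% in all). None of these calls held without each library in turn. All log phase calls were lost without log phase monosome A, and all but that of NDUFS4 without log phase monosome B. The serum starvation calls were lost without any 1 of the 6 monosome libraries. Those of amino acid starvation were lost without log phase monosome A or any 1 of the 4 amino acid starvation libraries. Counts ran from 0 to 13, from 0 to 5 and from 0 to 8 over the left-out libraries. With the replicate block 7 were higher and 14 lower in log phase, against 16.5% and 17.8% of genes (34.3% in all). After serum removal 6 were higher and 14 lower, against 14.7% and 14.3% (28.9% in all). After amino acid removal 11 were higher and 3 lower, against 15.4% and 13.6% (29.1% in all). Without the block, scaling moved the split of called genes: RLE scaling (relative log expression) gave 7.88% higher and 3.46% lower in log phase and 5.46% and 1.62% after serum removal, and library-size scaling 5.71% and 2.84% after amino acid removal. Without the block the members' median log2 ratio was -0.83, -0.77 and 0.18 in the same order, against -0.15, -0.18 and -0.14 for all tested genes.

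Amino acid starvation was then compared with log phase within polysomes. Without the block 0 of 37 members and 0% of 4888 genes passed in the edgeR fit, while 3 members and 427 genes had an unadjusted p under 0.05. DESeq2 called 0 of the 32 members it gave an adjusted p, and 4.96% of 1571 such genes. The median log2 change of the members was -0.81, against -0.09 for all tested genes, and 28 of 37 members were below 0 in both letters and 5 above. Signs in both letters were not counted over all genes. In A and B singly, 6 and 8 members were above 0, against 2218 and 2367 of 4888 genes. The median depended on single polysome libraries: it was -0.04 without log phase A, -0.29 without amino acid starvation B, -1.24 without log phase B and -1.28 without amino acid starvation A. Within letters, where the same letter is compared, it was -0.84 in A and -0.53 in B. With the block 2 members were higher, among them NDUFA9, and 1 was lower (NDUFA3), where 5.16% of genes were higher and 4.77% lower (9.92% in all), and 7.79% and 2.35% under library-size scaling.

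NDUFA9 had 147 and 154 CPM in log phase polysomes A and B and 365 and 341 CPM in amino acid starvation. Both starved libraries were above both others, at a log2 change of 1.24 with the block (SE 0.376, adjusted p = 0.0352) and 1.23 without it (SE 0.472, adjusted p = 0.506). NDUFA3 fell from 206 and 88.4 CPM to 72.4 and 34.5 CPM, and the starved B library was lowest. The ranges did not overlap, and the log2 change was -1.44 with the block (SE 0.425, adjusted p = 0.0306) and -1.47 without (adjusted p = 0.562).

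These blocked calls rest on few libraries. Those of NDUFA9 and NDUFA3 were lost without any 1 of the 4 polysome libraries of log phase and amino acid starvation, and that of NDUFA9 also without serum starvation monosome B. Adjusted p then reached 0.319 for NDUFA9 and 0.388 for NDUFA3. NDUFS7 went from 302 and 130 CPM to 95.9 and 71.1 CPM (log2 -1.28 with the block, SE 0.424, adjusted p = 0.0515). NDUFB4, a membrane arm subunit, went from 524 and 214 CPM to 209 and 102 CPM (-1.21, SE 0.421, adjusted p = 0.0623). For both, each starved library was below the log phase library of its letter. These folds moved with single polysome libraries in the fit without the block. Without log phase A the log2 change was -0.65 for NDUFS7, -0.47 for NDUFB4 and -0.74 for NDUFA3. Without amino acid starvation B it was -0.77 for NDUFB4 and -0.98 for NDUFA3, and the lowest values were -1.83, -1.77 and -2.01 for NDUFS7, NDUFB4 and NDUFA3.

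The members with positive values were those with long called ORFs or few footprints. NDUFA9, NDUFV1, NDUFS1 and NDUFA10 were among the 5 members above 0 in both letters, and NDUFA9 and NDUFV1 have called ORFs of 1014 and 1392 nt. Among 4 members with a leading ORF of 600 nt or more the median blocked log2 change was 0.97, although NDUFV2 with 750 nt lay at -0.92, against -0.82 for 25 members of 300 nt up to 600 nt and -0.73 for 8 under 300 nt. All tested genes followed the same order of lengths, with medians of 0.14, -0.41 and -0.24. Over genes the blocked change correlated with length at Spearman's rho = 0.325 for 37 members and 0.354 for 4888 genes, where values share libraries and depth. The change did not follow length step by step, since the middle class was lowest both among members and among all genes, and the part of length in it was not tested. Matrix arm accessory subunits had a median of -0.34, membrane arm accessory subunits -0.88 and core subunits -0.26 with the block.

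**Figure D4:**
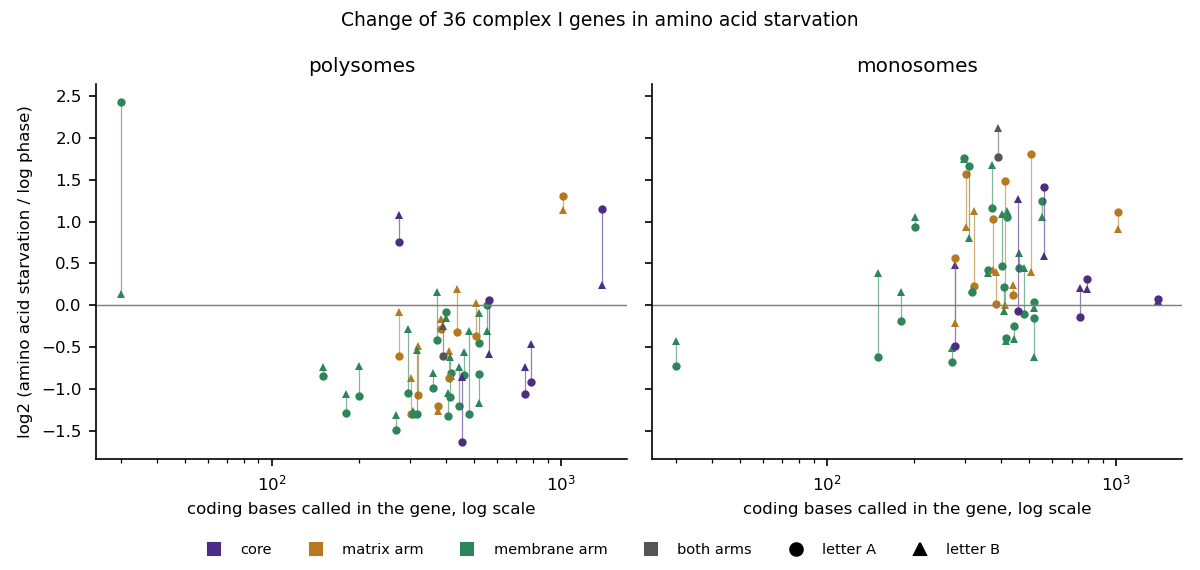
Log2 ratio of amino acid starvation over log phase CPM in polysomes (left) and monosomes (right) for 36 of the genes against the coding bases called in each gene (log axis); circles are letter A, triangles letter B, joined per gene, with colour for place in the complex. In polysomes most genes of 100 to 900 nt lie below 0 in both letters, and the 2 genes over 1000 nt lie above 0.

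In monosomes the comparison ran the other way for many members. Without the block 0 members and 0% of genes passed in the edgeR fit, while 4 members and 243 genes had an unadjusted p under 0.05. DESeq2 called 1 of the 16 members it gave an adjusted p, and 4.33% of 624 such genes. The median log2 change was 0.27 (all tested genes -0.01), and 22 members were above 0 in both letters and 5 below. In A and B singly, 25 and 29 of 37 members were above 0, against 2382 and 2340 of 4888 genes. With the block NDUFAB1 alone passed, where 0.573% of genes were higher and 0.348% lower (0.921% in all). NDUFAB1 rose from 212 and 213 CPM in log phase monosomes A and B to 727 and 929 CPM in amino acid starvation. The ranges were far apart, at a log2 change of 1.98 (SE 0.434, adjusted p = 0.0207), and serum starvation lay between at 388 and 316 CPM. The call was lost without either log phase monosome library, amino acid starvation monosome B or either serum starvation monosome library (adjusted p up to 0.229). NDUFS5 went from 295 and 265 to 1005 and 892 CPM, also without overlap (1.76, SE 0.475, adjusted p = 0.0748 with the block). NDUFB6 went from 241 and 170 to 543 and 542 CPM (1.46, SE 0.444, adjusted p = 0.117).

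Whether amino acid starvation changed the monosome over polysome ratio was tested as an interaction. Without the block 0 members and 0% of genes passed in the edgeR fit (5 members and 197 genes at an unadjusted p under 0.05). DESeq2 called 1 of 26 members with an adjusted p, and 2.64% of 908 such genes. The fitted change was above 0 in 32 of 37 members, against 2508 of 4888 genes, with a median of 1.24 against 0.03. It was lower under library-size scaling (0.79), which also moved the median of all genes by -0.34, and it ran from 0.33 without log phase polysome A to 1.56 without amino acid starvation polysome A. With the block 2 members passed, NDUFAB1 (2.42, SE 0.59, adjusted p = 0.0338) and NDUFB3 (2.44, SE 0.621, adjusted p = 0.0459), where 1.08% of genes were higher and 0.0818% lower (1.17% in all). NDUFB3, a small membrane arm subunit, had 292 and 263 CPM in log phase monosomes and 925 and 460 CPM after amino acid starvation, while its polysome level went from 900 and 396 to 366 and 164 CPM. Both calls were lost without log phase or amino acid starvation polysome A, amino acid starvation polysome B, log phase monosome A, amino acid starvation monosome B or either serum starvation monosome library, and that of NDUFB3 also without log phase polysome B (adjusted p up to 0.493 for NDUFAB1 and 0.556 for NDUFB3). Under library-size scaling with the block 0 members passed. This comparison shares its log phase and starvation libraries with the ones above.

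No member was called between serum starvation and log phase. In polysomes 0 members and 0% of genes passed with or without the block in the edgeR fit, 0 members and 5 genes had an unadjusted p under 0.05 without it, DESeq2 called 0 members, and the median log2 change was -0.06 (range -0.54 to 0.41). In monosomes 0 members passed as well, in edgeR at adjusted or unadjusted p (85 genes at the latter) and in DESeq2, against 0% of genes without the block and 0.0205% with it. The median was -0.06 (range -0.98 to 1.09). The fitted change of the ratio ran from -1.28 to 1.19 over members, with 0 members called by edgeR with or without the block (0% and 0.0205% of genes), 0 members and 39 genes at an unadjusted p under 0.05, and 0 members called by DESeq2. Medians within polysomes ran from -0.83 without serum starvation polysome A to 0.59 over the left-out libraries.

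Taken as a share of coding footprints, the 37 genes held 1.38% ± 0.258 (SD, n = 6) in monosome and 1.55% ± 0.443 (SD, n = 6) in polysome libraries. With ORFs of the annotated coding type alone (10 members) the order of the fractions turned, at 2.08% ± 0.298 in monosomes and 1.65% ± 0.433 in polysomes. In log phase the share was 1.32% and 1.26% in monosomes A and B and 2.01% and 1.3% in polysomes. In amino acid starvation it was 1.7% and 1.69% in monosomes and 1.71% and 1% in polysomes. In serum starvation it was 1.29% and 1.05% in monosomes and 2.07% and 1.21% in polysomes. Both amino acid starvation monosome libraries were above the other 4 monosome libraries, whereas in polysomes every A library was above every B library whatever the condition. Core subunits, at 0.149% ± 0.0128 in polysomes and 0.0994% ± 0.0107 in monosomes (SD, n = 6 each) as a sum, did not overlap between fractions, although single core subunits differed between letters in both directions. In log phase polysomes A and B NDUFS8 had 659 and 179 CPM, whereas NDUFV1 had 155 and 290 CPM. Membrane arm accessory subunits carried most of the difference between letters, at 1.41%, 1.47% and 1.15% in the A and 0.826%, 0.764% and 0.608% in the B polysome libraries of log phase, serum starvation and amino acid starvation.

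**Figure D5:**
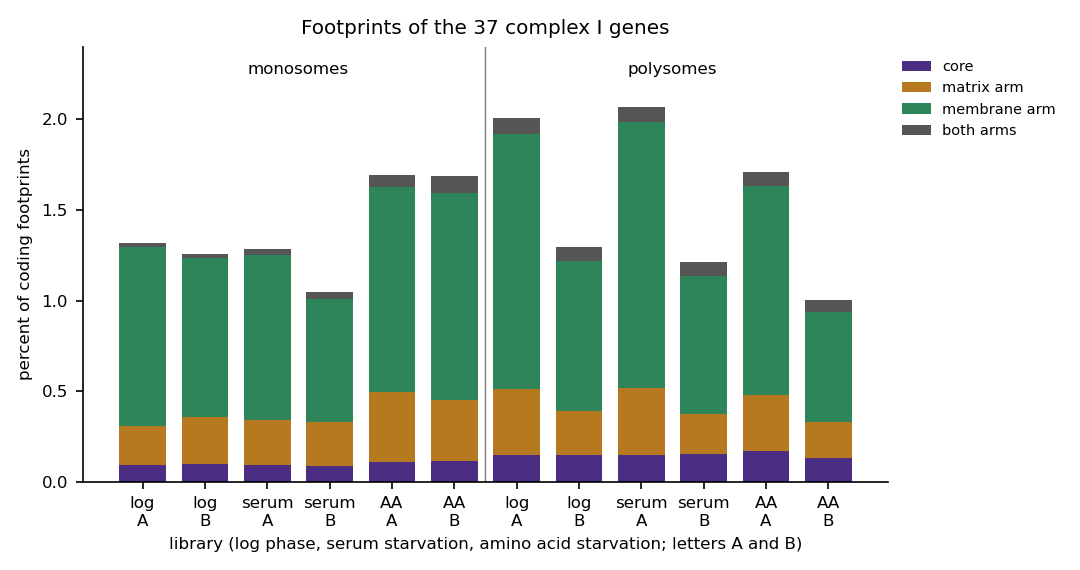
Percent of coding footprints held by the 37 genes in each of the 12 libraries, stacked by place in the complex. Monosome bars reach 1.05 to 1.7% and polysome bars 1 to 2.07%, with A above B in each polysome pair.

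Other genes of the same pathway were counted from fixed lists. Beside these counts, 17.0% of all tested genes were higher in monosomes over the 3 conditions and 21.8% lower (median log2 ratio -0.18). Of 14 tested assembly factors of complex I, 4 were higher and 3 lower in monosomes over the 3 conditions (median log2 ratio -0.79), among them NDUFAF8 at 3.82 (SE 0.39, adjusted p = 7.5e-06), NDUFAF6 at 1.71 and DMAC1 at -2.38. Of 12 tested genes of iron-sulfur cluster assembly, 5 were higher and 0 lower (median 0.53), led by BOLA3 at 5.68 (SE 0.48, adjusted p = 1.59e-06). Of 39 tested nuclear subunits of complexes II to V, 8 were higher and 13 lower (median -0.62), with UQCR11 at 5.13 and ATP5F1E at 5.46. Their median change in amino acid starvation polysomes was -0.75 without the block, and that of the ratio 1.08, next to -0.81 and 1.24 for complex I. No test of the lists was made.

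The mitochondrially encoded subunits of the complex were present in the same libraries, for 5 of the 7 genes as ORFs of the orphan type. The mean share of all footprints was higher in monosomes for each of the 7. ND1 held 0.298% ± 0.156 in monosomes and 0.00542% ± 0.00503 in polysomes, and ND4 held 0.264% ± 0.103 and 0.00562% ± 0.00329 (SD, n = 6). ND5 held 0.289% ± 0.126 and 0.0308% ± 0.0153. The 37 nuclear genes held 0.48% ± 0.176 and 0.966% ± 0.334 of all footprints in the same libraries, but 1.38% and 1.55% of coding footprints. Coding footprints were a smaller part of all footprints in monosomes than in polysomes. In log phase A they were 289185 of 1204002 and 5313484 of 7683764, respectively. The mitochondrially encoded subunits are made inside the mitochondrion, and what the fractions mean for them was not tested.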

How the data were processed

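Ribosome footprints of 12 HEK293 libraries (6 groups of 2) were read from 1 deposited table. The submitters' processing notes list Bowtie 1.0 and hg38 with no role. The ORF caller is PRICE by the name of the table, and its settings and strand handling are not given in the sources used here. The authors deposited expected counts per ORF and library, and the caller's p-value, used here only to describe ORFs.

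Each codon was counted once, coding types and higher totals first, which kept 124829 of 149028 ORFs, 7031 of them coding. Expected counts of coding ORFs were summed per gene, named by position from RefSeq, and rounded to whole numbers. Of 6375 gene IDs 160 carried more than 1 symbol and were split by ORF position, among them those of NDUFA7, NDUFB8, NDUFC1, NDUFS3 and NDUFV2. NDUFC2 also lies within a readthrough gene.

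The 4888 genes that passed filterByExpr (minimum count 10, minimum total 15) entered 1 quasi-likelihood model of all 6 groups after TMM scaling (edgeR 4.0.16 with limma 3.58.1, R 4.3.3). It gave 10 contrasts, tested in both directions and adjusted by Benjamini-Hochberg per contrast. The letters are not tied to replicate numbers in the labels. Since B minus A deviations correlated above 0.1 in every pair of groups (r = 0.161 to 0.866), they were taken to pair libraries, and blocked values are printed where calls or counts change. Ratios of single pairs add 2 CPM. The alternatives were RLE and library-size scaling, DESeq2 1.42.0, no filter, a filter of 50 footprints, ORFs of the CDS type, only the groups of a comparison, the block and leaving out each library. Whole gene IDs, and scalings and left-out libraries under the block, were added after seeing the data. The edgeR model without the block was tried on simulated data with no letter effect and less spread than the real libraries. This covered monosome against polysome over the conditions and amino acid starvation against log phase in polysomes. The block, the interactions and DESeq2 were not simulated.

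Members and lists were chosen with earlier results of these data known. Full values are given for the 4 members highest in polysomes, up to 5 higher and 5 lower in monosomes whose higher fraction held 50 footprints or more per library, and the 4 with the smallest p for amino acid starvation in polysomes. Core subunits have fold changes, and of other lists up to 3 genes are named. Other members were shown after their values were seen. The values of 1 member, which is in the counts and medians, are not reported here, and the plots of members leave it out.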

Additional observations from a re-analysis of the deposited data

Results flagged for a closer look

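For 2 members the monosome over polysome ratio differed between log phase and amino acid starvation in the interaction test with the replicate block. NDUFAB1 had a log2 change of 2.42 (SE 0.59, edgeR adjusted p = 0.0338) and NDUFB3 one of 2.44 (SE 0.621, adjusted p = 0.0459). In log phase NDUFAB1 lay below 0 in the log2 ratio of both letters, and in amino acid starvation near 0 in A and above it in B. Neither passed without the block (adjusted p = 0.967 for NDUFAB1 and 0.998 for NDUFB3), and 7 of 12 left-out libraries for NDUFAB1 and 8 of 12 for NDUFB3 ended the call.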

How the results depend on the processing

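Of the alternatives other than left-out libraries, 164 values stayed close to the main one and 30 moved. A median counted as close when it moved by less than the SD between letters, which was 0.608 for the ratio in log phase. Counts of 0 calls in both settings also counted as close, including comparisons where no gene passed. With CDS-type ORFs alone 3 members were called over the 3 conditions (median 0.14), 1 in log phase (-0.21), 0 after serum removal (-0.01) and 2 after amino acid removal; the amino acid medians were 0.14 in monosomes and 0.52 for the ratio, and the monosome share was 2.08% against 1.65% in polysomes, which turns the order of the fractions. That setting tests 10 members, and called 42.4%, 17.9%, 12.1% and 14.9% of its 804 genes in the 4 fraction comparisons. The replicate block gave 21 calls in log phase, 20 after serum removal and 14 after amino acid removal, and for amino acid starvation against log phase 3 in polysomes, 1 in monosomes and 2 for the ratio. DESeq2 gave 5 calls in serum starvation (13.1% of genes), 7 in amino acid starvation (14.3%), and 1 each for the amino acid changes in monosomes (4.33%) and of the ratio (2.64%), over genes with an adjusted p. With only the groups compared there were 0 calls in serum starvation (3.00% of genes), 9 in amino acid starvation (18.4%) and 4 for amino acid starvation in monosomes (3.27%). RLE scaling and the filter of 50 footprints each left 1 call in serum starvation (7.08% and 6.01% of genes). Library-size scaling gave amino acid medians of -0.38 in polysomes and 0.79 for the ratio; with the block it gave 2 calls in monosomes (1.06% of genes) and 0 for the ratio (0.716%), where RLE gave 1 (1.02%). It moved the all-gene median by 0.31 in polysomes, and RLE moved that of the monosome over polysome ratio by 0.14 over the conditions. NDUFS6 turned to -0.02 with no filter and ran from -0.10 to 0.52 over left-out libraries, with -0.02, -0.05, -0.09 and -0.10 below 0. The cause was not tested.

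Without each library in turn, medians ran from -0.83 to -0.22 over the 3 conditions, -1.33 to -0.22 in log phase, -1.40 to -0.57 after serum removal and -0.07 to 0.55 after amino acid removal. Calls ran from 0 to 13, 0 to 5 and 0 to 8 in those conditions, and with the block from 14 to 24, 4 to 23 and 5 to 14. For amino acid starvation against log phase medians ran from -1.28 to -0.04 in polysomes, 0.18 to 0.56 in monosomes and 0.33 to 1.56 for the ratio, with 0 to 10, 0 to 3 and 0 to 6 calls under the block. For serum starvation medians ran from -0.83 to 0.59 in polysomes, -0.34 to 0.07 in monosomes and -0.63 to 0.81 for the ratio. The group then has 1 library, assumed to vary like the others. Monosome depth limits members under 10 footprints.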
